A study of Drosophila melanogaster with 4 samples.

Results

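The Iroquois complex of Drosophila melanogaster is a cluster of the homeobox genes ara, caup and mirr on chromosome arm 3L. It was represented here by a window of 160 kb, and its members were the Groucho peaks on 3L whose centre lay between 12560000 and 12720000 on FlyBase release 5. The window held 36 of the 2565 peaks on the arm and of the 11165 peaks in the whole list. The members were thus fixed by position, not by score, width or number. The window itself was chosen with earlier results of these data known.

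The proteins Ara, Caup and Mirr are homeodomain transcription factors of the TALE class. In the imaginal discs they subdivide territories: they specify the dorsal eye and the notum, and in the wing disc Ara and Caup act in the prepattern that switches on proneural genes and vein genes. The neighbours ara and caup are known to be expressed in nearly the same pattern and to share regulatory sequence, whereas the pattern of mirr overlaps theirs only in part. Groucho is a co-repressor without DNA-binding ability of its own. It is recruited by repressors such as Hairy and the E(spl) proteins, and, through Hairless, by Suppressor of Hairless.

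The material was white prepupae, animals at the start of metamorphosis whose discs are about to evert, of a strain that the labels call Y cn bw sp. Both groups came from that strain: 2 Groucho ChIP libraries and 2 input DNA libraries. All carried y[1] and oc[R3.2]. They also carried Gr22b[1], Gr22d[1] and cn[1], along with CG33964[R4.2], bw[1] and sp[1]. The remaining alleles were LysC[1] and lab[R4.2], with MstProx[1], GstD5[1] and Rh6[1]. No treatment or dissected tissue is named in the labels, so the list does not separate cells in which the complex is active from cells in which it is silent. The antibody was a polyclonal rabbit serum, KW0:GRO, raised against a peptide of Groucho.

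The comparison of the series is Groucho ChIP against input DNA, and the question is where Groucho was enriched. Its result is 1 peak list with a position and a score from the authors' caller (MACS) for each peak. The scale of the score is not stated, so scores are compared only within the list. There is no value per library, so neither a spread between replicates nor a test over samples could be had, the read depth is unknown, and all values below describe this list. A stretch without a peak is a stretch where none was called at this depth.

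The file names no gene, and the gene table at hand is on release 6, so no peak was assigned to a promoter or a gene, and the identity of the window could not be checked against its genes. The table gives only the order of the genes. In it ara (Dmel_CG10571) and caup (Dmel_CG10605) are direct neighbours, followed by 4 long non-coding RNA genes (lncRNA:CR32111, lncRNA:CR43431, lncRNA:CR44553 and lncRNA:CR44552) and then mirr (Dmel_CG10601). No protein-coding gene lies between caup and mirr. The nearest protein-coding genes outside the complex are sowah, on the side of ara, and SmD1, on the side of mirr.

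Groucho peaks were spread over almost the whole Iroquois window, in 10 separate groups, the largest of which held 8 peaks inside the window. Groups are members with less than 5 kb between the end of one peak and the start of the next. Peak-free gaps of 5.71 to 18.2 kb separated them. Cut into 16 bins of 10 kb, the window had 3 bins without a peak centre (18.8%), whereas 53.3% of the 2435 bins on 3L as a whole had none. The fullest bins held 5 peaks. The shares of empty bins are not matched for peak number, and more peaks leave fewer bins empty. The window held 36 peaks, against a median of 16 in the other 3L windows of its size.

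**Figure D1:**
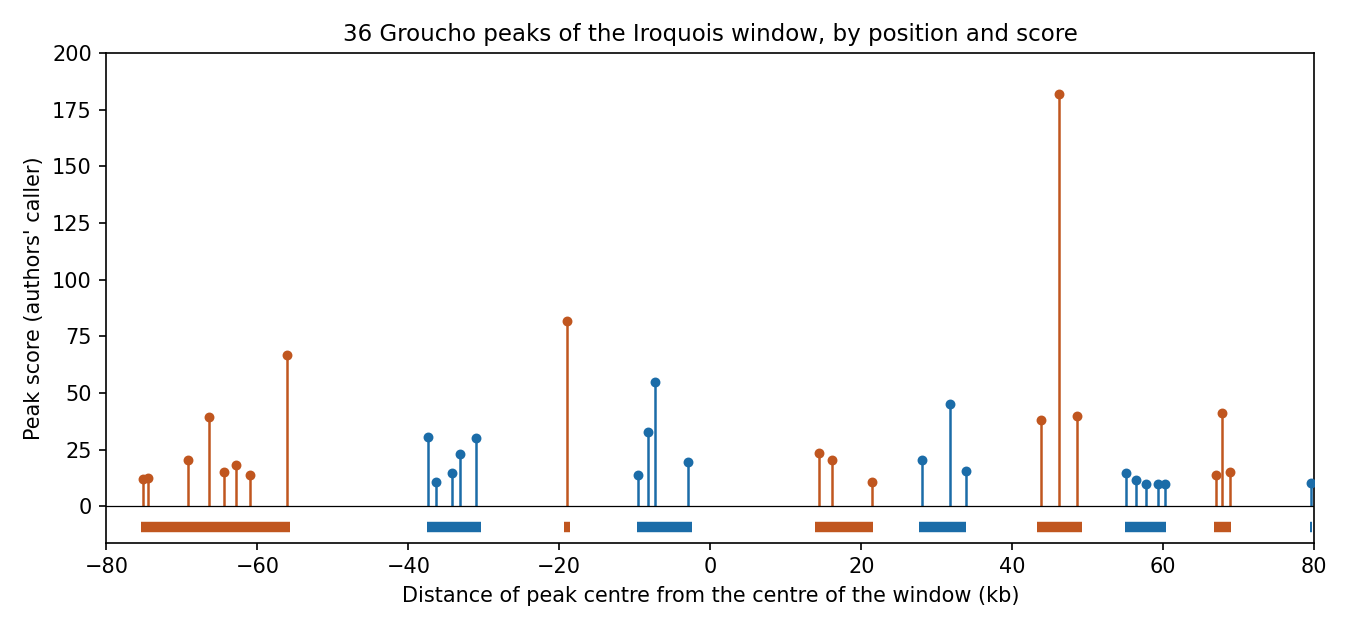
Position and score of the 36 members. The x axis gives the distance of the peak centre from the centre of the window in kb, and the y axis the score of the authors' caller. Each stem is 1 peak, and the thick bars under the axis mark the 10 groups of peaks less than 5 kb apart, in alternating colours. The highest stem, 181.89, stands between 2 lower ones of 38.14 and 39.78, and the 5 peaks to its right score 9.96 to 14.56.

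Taken from the lower bound upwards, the first group ran from 12564600 to 12584265 and held 8 members with scores of 12.02 to 66.65. Its strongest peak was its last, 3L:12583589-12584265, and its second strongest was 3L:12573312-12573776 with 39.29. After the longest peak-free stretch of the window, 18.2 kb from 12584266 to 12602425, came a compact group of 5 peaks at 12602426 to 12609637, which covered 41.1% of its span and began with 3L:12602426-12602845. Its scores were moderate, from 10.82 to 30.48, although it contained the second-widest member, 3L:12608179-12609637, at 1459 bp with a score of 30.25. A further stretch of 11 kb without a peak ended at the isolated peak 3L:12620642-12621394. This lone site had the second-highest score of the window, 81.78, at a width of 753 bp.

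The middle of the window held small groups. A group of 4 peaks at 12630353 to 12637518 had its highest score, 54.98, at 3L:12632347-12633000, with 32.72 at the adjacent peak 3L:12631397-12632022. Behind it lay the second-longest stretch without a peak, 16.4 kb from 12637519 to 12653880. The next group, at 12653881 to 12661570, had 3 peaks, of which the first and second were 971 and 980 bp wide but scored only 23.73 and 20.47. The group at 12667708 to 12673939 also had 3 peaks and reached 45.27 at 3L:12671344-12672073.

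The strongest Groucho site of the complex window lay in its last 40 kb. The peak 3L:12685482-12687015 scored 181.89, was also the widest member with 1534 bp, and ranked 55 on 3L and 208 in the whole list. It was flanked at about equal distance by 2 peaks of the same group, 3L:12683338-12684319 with 38.14 and 3L:12688058-12689183 with 39.78, whose centres lay 2.42 and 2.37 kb away. These 3 peaks were 982, 1534 and 1126 bp wide, covered 62.3% of the 5.85 kb from 12683338 to 12689183, and had the highest median score of the groups with at least 3 peaks, 39.78. The score of its middle peak was 2.22 times that of the second-highest member and made up 17.4% of the summed score of the window.

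Directly behind the strongest group lay the weakest one. From 12694898 to 12700385, 5 peaks of 278 to 424 bp scored 14.56, 11.71, 9.96, 9.96 and 9.96. The score of 9.96 was the lowest in the window and was shared by 24 peaks on 3L and 122 in the list. A group of 3 peaks followed at 12706724 to 12708922, with 41.25 at its middle peak, 3L:12707574-12708129. The last member, 3L:12719461-12719661, stood alone, with the smallest width in the list, 201 bp, and a score of 10.25. It lay 0.439 kb inside the upper bound and had no other peak within 10 kb.

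The 2 bounds of the window differed. At the lower bound the peaks ran on: the nearest peak outside, 3L:12559402-12559843 with a score of 14.57, had its centre 0.378 kb beyond the bound, and the nearest member, 3L:12564600-12565018 with 12.02, lay 4.81 kb inside it. The first group was the end of a chain of 19 peaks less than 5 kb apart, from 12535022 to 12584265, of which 11 lay outside the window. At the upper bound the peaks stopped. The next peak after the last member, 3L:12781628-12781953 with 21.37, came after 62 kb without any peak, and only 57 of the 2564 peak-free stretches on 3L (2.22%) were longer.

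**Figure D2:**
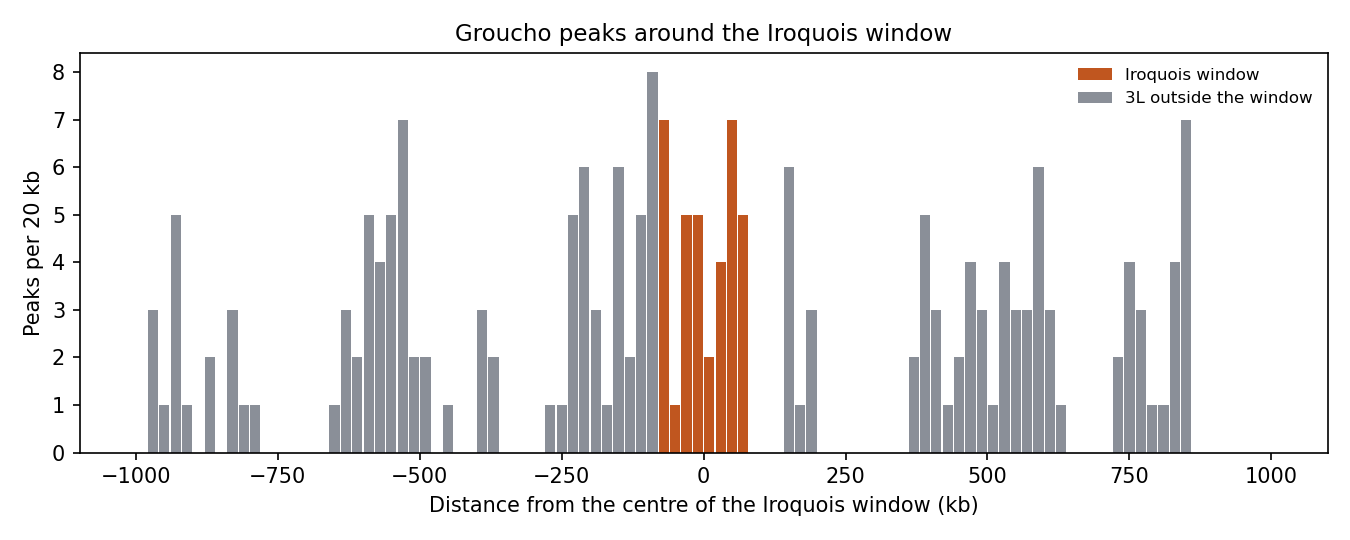
Number of peaks in bins of 20 kb, against the distance in kb from the centre of the Iroquois window, up to 1000 kb on either side. Coloured bars are bins of the window and grey bars are bins outside it. On the left, each bin holds a peak back to 270 kb from the centre, and on the right the 3 bins next to the window are empty before a bin with 6 peaks.

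The windows of the same size on either side showed the same contrast. The Iroquois window held 36 peaks, and so did the 160 kb before it, whereas the 160 kb after it held 10. Median scores were 18.81 in the Iroquois window, 14.57 in the window before and 24.15 in the window after. The highest scores were 181.89 in the Iroquois window, 192.42 before it and 139.38 after it.

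The Iroquois window was among the fuller windows of the arm, though not at its top. Cutting 3L into windows of 160 kb edge to edge with it gave 151 windows. The 36 peaks of the Iroquois window compared with a median of 16 in the other 150 windows (quartiles 7.25 and 24), a ratio of 2.25. More peaks were found in 11 windows, the same number in 1 and fewer in 92% of the others. Windows with at least 36 peaks made up 8.61% of all. These ranks are descriptions only, since the window was chosen with earlier results of these data known. Peaks covered 12.8% of the Iroquois window, against a median of 5.31% of the other windows (quartiles 2.49 and 9.15), and it ranked 18 by covered bases. Peaks per window and covered bases went together over the 151 windows (Spearman's rho = 0.972, a description, since both count the same peaks).

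The fullest window of the arm, at 720000 to 879999, held 52 peaks, and those at 16080000 to 16239999 and 560000 to 719999 held 47 and 46. Next above the Iroquois window stood 4 windows with 37 peaks, which began at 8560000, 9360000, 10800000 and 20880000. Next below stood the window at 17520000 to 17679999 with 35.

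**Figure D3:**
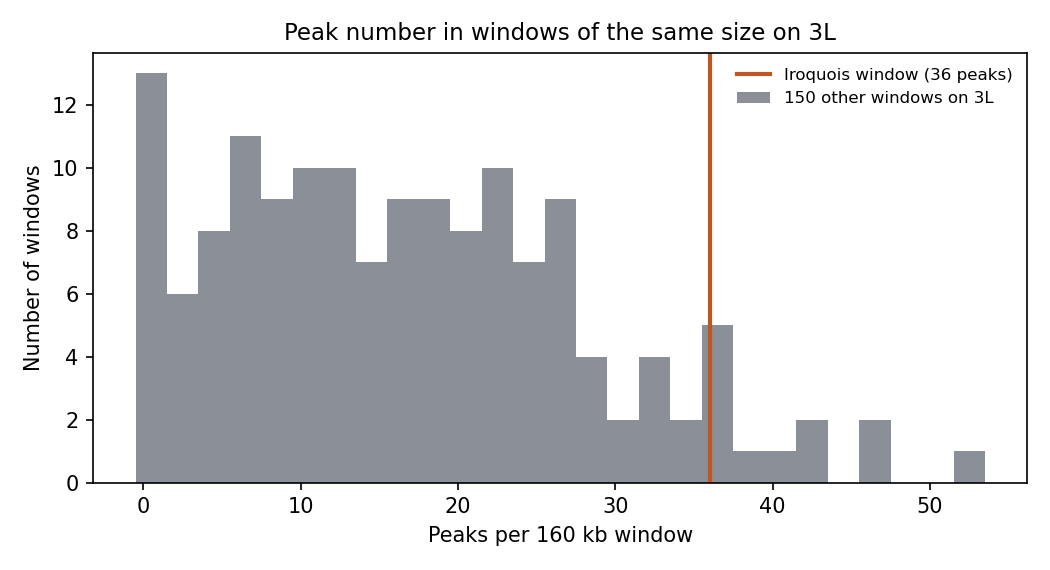
Distribution of the number of peaks per window of 160 kb on 3L. The vertical line marks the Iroquois window with 36 peaks, and the histogram shows the other 150 windows, which range from 0 to 52. The line stands in the right part of the distribution.

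Taken singly, the peaks of the complex window had scores like those of the rest of the arm. Their median score was 18.81 (quartiles 13.43 and 34.08), against 18.01 (12.32 and 35.92) for the 2529 peaks elsewhere on 3L. Scores above the median of the list were found in 18 of 36 members, against 48.9% of all 3L peaks, and scores above its upper quartile of 36.9 in 9 members, against 24.0%. A score above 100 was reached by 1 member, the strongest peak, and by 6.55% of 3L peaks. The difference in median score, 0.8, changed sign under other settings: it was -1.31 among peaks wider than the median and -2.45 with the window widened by 20 kb at each end. Its direction thus depends on the setting.

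The median width was 464 bp, against 443 bp elsewhere on 3L, with a range of 201 to 1534 bp in the window. None of the members was wider than 2 kb, a width exceeded by 2.73% of 3L peaks, and 1 member had the smallest width of 201 bp, as did 1.33% of 3L peaks. At such shares, 36 members are too few to tell the window from the arm, and the same holds for scores above 100. Score and width went together among the members (Spearman's rho = 0.769, n = 36) much as they did on 3L as a whole (0.766), which is a description, since score and width come from the same call.

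**Figure D4:**
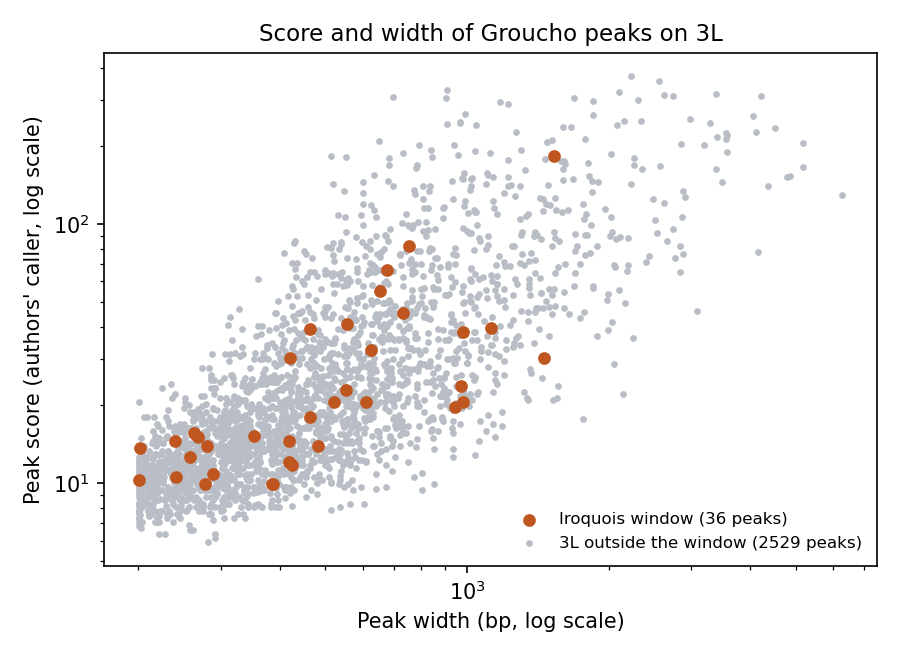
Score of the authors' caller against width in bp, both on log scales, for the 36 members (coloured) and the 2529 other peaks on 3L (grey). The members lie within the cloud of the arm, and none reaches 2 kb in width.

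Set beside peaks of a like width on the arm (within a factor of 1.2), the members differed among themselves. The strongest peak, 3L:12685482-12687015, scored higher than 93.4% of 106 such peaks, whose median score was 75.9. The lone peak 3L:12620642-12621394 scored higher than 87.6% of 356, and 3L:12573312-12573776 and 3L:12583589-12584265 higher than 85.5% and 84.5% of theirs. The narrow peak 3L:12578870-12579071, with a score of 13.7, was also high for its width (86.9%). Low for its width was 3L:12608179-12609637, which scored higher than only 8.11% of 111 peaks with a median of 69.8. Others low for their width lay on both sides of the median width elsewhere on 3L, 443 bp. Those below it included 3L:12699142-12699528, 3L:12700001-12700385, 3L:12696169-12696592 and 3L:12564600-12565018, which scored higher than 8.72%, 9.01%, 12.9% and 15.2% of peaks of like width. For 3L:12697517-12697794 the share was 22.3%. Those above it included wide ones in the middle of the window. These were 3L:12636578-12637518, 3L:12653881-12654851 and 3L:12655577-12656556, which scored higher than 11.9%, 22.2% and 13.2% of peaks of like width, where the median was 41.8. Also above it was 3L:12706724-12707206, of 483 bp, which lay toward the upper bound and scored higher than 21.9%. Over the 36 members, 16 scored above the median of peaks of like width, 19 below it and 1 equal to it.

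Neighbouring members were somewhat closer than neighbouring peaks elsewhere on the arm. The median distance between their centres was 2100 bp over 35 pairs, against 2967 bp over 2527 pairs elsewhere on 3L, a ratio of 0.708. It was not unusual for a window this full. In the other 3L windows with 30 to 43 peaks, the median distance ranged from 1496 to 4174 bp. Within the 50% of peaks with the highest scores it was 4.37 kb over 17 pairs in the window, against 6.14 kb over 1234 pairs elsewhere on 3L, a ratio of 0.712. Among peaks above the upper quartile it was 11.9 kb over 8 pairs in the window, against 13.1 kb over 605 pairs. At least 4 others within 10 kb were found for 22 of 36 members, near the 54.3% of all 3L peaks, and the median number of others within 10 kb was 4 in the window and 4 elsewhere on 3L. The 9 members above the upper quartile were shared out over 6 of the 10 groups, with 2.37 to 39 kb between neighbouring centres. Only the group around the strongest peak held more than 2 of them.

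Crowded clusters of stronger sites were not found in the window, when neighbours were counted in the higher-scoring 50% of the list alone. On 3L, 24.5% of such peaks had at least 4 others within 10 kb, but 0 of the 18 in the Iroquois window did. With at least 3 others the shares were 0 of 18 in the window and 39.6% on 3L. With at least 2 others they were 9 of 18 and 57.4%, and with at least 1 other 15 of 18 and 82.9%. The window and the arm thus had like shares of stronger sites with at least 1 neighbour within 10 kb, and differed in the shares with 3 or more. The shares on 3L count peaks, so windows crowded with stronger sites weigh more in them. Many other 3L windows, most of them with fewer peaks, also had no stronger site with at least 4 such neighbours. The 18 stronger members share neighbours, so their counts are not independent. The counts with 3 or more also depend on where the cut is set, as given below.

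At the cut used, the most crowded stronger sites of other windows with a like number of peaks had more neighbours. On 3L, 17 windows held 30 to 43 peaks, within a factor of 1.2 of the Iroquois window. The Iroquois window had 18 peaks in the higher-scoring 50%, and these windows had 12 to 23, with a median of 18. The largest number of higher-scoring neighbours of any such peak was 2 in the Iroquois window, and it was at least 3 in each of the 17 windows. This count rests on the cut at the list's median score of 18.38. Just below the cut lay the member 3L:12576994-12577456, with a score of 18.01. It had the higher-scoring members 3L:12570537-12571058, 3L:12573312-12573776 and 3L:12583589-12584265 within 10 kb. A slightly lower cut would thus raise the largest number in the Iroquois window to at least 3. How it would change the other windows was not examined. The number of higher-scoring peaks with at least 4 such neighbours was 0 in the Iroquois window, against a median of 6 and a highest value of 17, and it was 0 in 2 of the 17 windows. Among these 2 was the window directly before the Iroquois window. The contrast in the largest number was not confined to the range of 30 to 43 peaks. In the 3L windows with 28, 29, 46, 47 and 52 peaks the largest number was 3 to 9. It did not hold for all windows with 27 peaks, which began at 6800000, 16560000, 18000000 and 22800000. Their largest numbers of higher-scoring neighbours were 2, 1, 7 and 2.

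The same windows were compared by the size of their groups. The largest group of peaks less than 5 kb apart had 8 members in the Iroquois window, against 6 to 37 and a median of 13, and 1 of the 17 windows had a smaller one. This comparison rests on cutting groups at the bounds. Uncut, the largest group that reached into the Iroquois window had 19 peaks, against 6 to 42 and a median of 14, and 13 of the 17 windows had a smaller one. The Iroquois window was divided into 10 groups, against 1 to 12 and a median of 8. At the crowded end stood the window at 8560000 to 8719999, with 37 peaks in 1 group and 9 peaks scoring above 100. The Iroquois window had 1 peak above 100, and 12 of the 17 windows had more. Its highest score, 181.89, was exceeded in 14 of the 17 windows (range 139.38 to 328.03), and its covered share of 12.8% in 13 of them (9.55% to 22.8%).

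**Figure D5:**
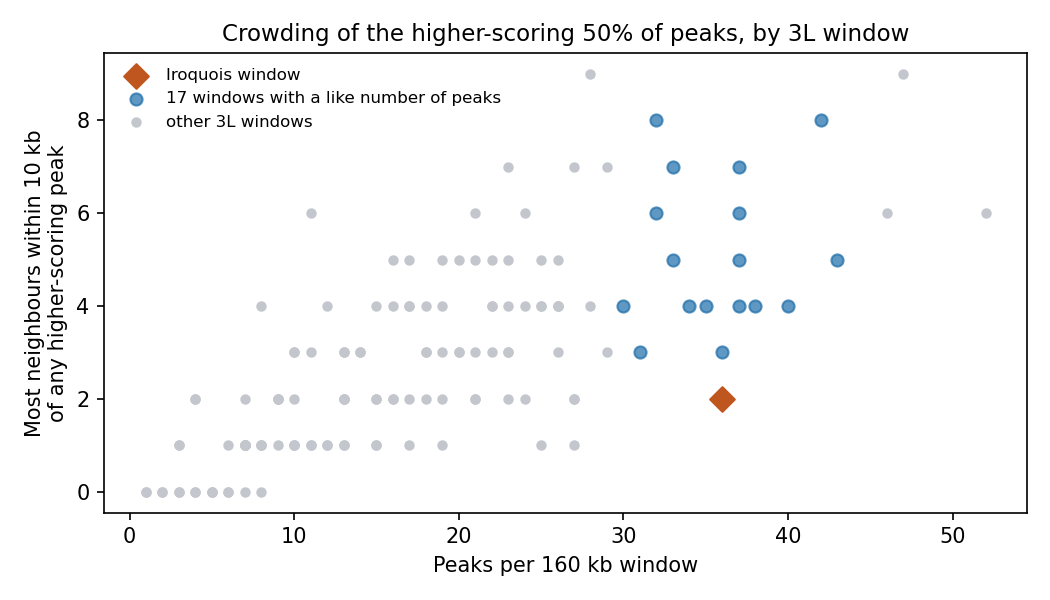
For each window of 160 kb on 3L, the x axis gives the number of peaks and the y axis the most neighbours within 10 kb that any peak in the higher-scoring 50% has, counting peaks of that 50% alone. The diamond is the Iroquois window, the blue points are the 17 windows with 30 to 43 peaks, and grey points are the others. The diamond, at 36 peaks and 2 neighbours, lies below all blue points. Grey points at 27 peaks lie at 1, 2 and 7 neighbours.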

How the data were processed

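Groucho ChIP (2 libraries) and input DNA (2 libraries) of white prepupae enter through 1 deposited peak list. Per the file headers, positions are on FlyBase release 5 and the caller is MACS. Scores are the authors' values, as deposited, on a scale not stated. BDGP5, MACS2, BWA and CASAVA (versions 1.7.0.2 and 1.7.0.3) are named in the submitters' processing notes. The sources used here give no peak threshold, filter or pooling of libraries. Splitting of peaks by the caller changes their number, so joined peaks were tried.

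Positions are 1-based. Peaks were counted by centre in windows of 160 kb from base 1 to the last peak of 3L. All values are descriptions of the list, and no test was made. The window and its genes were chosen with earlier results of these data known. Named peaks are the 10 of highest score, the 5 widest, those at the bounds or beside the 3 longest peak-free stretches, and groups of at least 3. Named windows are the 3 fullest and those next in order. Windows of like peak number, peaks of like width, groups per window (cut and uncut), spacing by score, 10 kb bins and neighbours among higher-scoring peaks by number were added after the list had been seen, as were other members named. The planned motifs, proteins and distances to start sites need sequence or a release 5 annotation and were not analysed here. Counting was tested on simulated data. Tools were Python 3.11.15, numpy 2.4.6, pandas 2.3.3, scipy 1.17.1 and matplotlib 3.10.9.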

Additional observations from a re-analysis of the deposited data

How the results depend on the processing

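A share counts as moved when it left the exact 95% binomial interval of the value reported, and other values when they changed by over 1.5 times. That interval treats peaks or windows as independent, which neighbours on an arm need not be. It serves here as a yardstick, not as a test. The 36 peaks became 18 in the higher-scoring 50%, 19 among peaks wider than the median and 9 after joining at 5 kb, where the chain across the lower bound has its centre outside. The percent of other windows with fewer peaks was 97.3 and 85.3 after joining at 1 and 5 kb, 95.8 with the window widened by 20 kb, and 96.3 over 734 windows on the 5 large arms, a setting chosen after seeing the data, against 92 as reported. The score difference of 0.8 was -1.31 among wider peaks, -2.45 with the wider window, 3.77 with the window narrowed by 20 kb and 0.43 against the 6 main arms. The width difference of 21 bp was 38.5 among the higher-scoring 50%, 237 after joining at 1 kb, 176.5 in the narrower and 32 in the wider window. The share of members with many neighbours, 61.1%, was 0% in the higher-scoring 50%, 25% after joining at 1 kb and 100% for at least 9 others within 50 kb, against 24.5%, 12.1% and 83% on 3L. Fewer peaks are counted under the first and second of these. The largest group of 8 peaks was 19 uncut at the bounds, also chosen after seeing the data. The cause of the other shifts was not tested. No paired analysis was possible because the list holds no value per library, and no replicate could be left out for the same reason. Read depth is unknown.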
